A study of Mus musculus with 67 samples.

Results

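Genes for splicing factors, related RNA-binding proteins and RNA helicases were followed in the mouse striatum across age, diet and sex. A gene was a member when the only symbol given to its feature began with Snrp, Srsf, Sfrs, Sf3, Hnrn, Hnrp, Prpf, Ddx, Dhx, Rbm or Lsm and a digit, and features of 1 gene were averaged. The rule found 82 of 8448 features, which stand for 70 of the 4209 genes named on the array. They comprised 6 snRNP, 6 Lsm, 4 SF3, 2 Prpf, 6 SR, 13 hnRNP and 17 Rbm genes, 10 Ddx helicases and 6 Dhx helicases. A further 6 features carried a matching symbol beside other symbols and were left out.

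Each of the 67 arrays held striatal RNA of a single C57BL/6 mouse on a nylon filter of spotted mouse cDNA clones (the B set of a 17K collection), labelled by radioactive reverse transcription. The diets were ad libitum feeding (AL) and caloric restriction (CR), for which feed was lowered after 13 weeks of regular feeding to 90%, then 75% and finally 60% in weekly steps and was fortified. The young adults were 169 to 194 days of age, the middle-aged mice 472 to 499 days and the old mice 673 to 743 days, with 5 males and 5 females in each age and diet group except young CR males (4) and old CR males (3). The other 10 mice were juvenile AL animals of 17 to 44 days, 5 of each sex. The labels name no altered gene and no agent. All 3 old CR males had an age of 673 days and the AL males of that stage at 714 to 743 days, so diet in old males cannot be told apart from this gap in age. The value of a feature is a Z score, its distance from the mean of all features on that array in SDs, so differences are in Z units and there is no fold change.

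Pre-mRNA splicing is carried out by the spliceosome, which assembles on each intron from small nuclear RNAs, each wrapped in a set of proteins, and from many further factors. Sm proteins (Snrpb, Snrpd1, Snrpd2, Snrpe and Snrpg among them) form a ring on most spliceosomal RNAs, and some Lsm proteins form a like ring on U6. SR proteins and hnRNPs bind the pre-mRNA and set which exons are kept. DEAD-box (Ddx) and DEAH-box (Dhx) helicases unwind or remodel RNA in splicing, ribosome assembly, transport and translation. Neurons are known for extensive alternative splicing. In RNA from whole tissue, fewer cells of a type and less RNA per cell cannot be told apart.

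Properties of the arrays bear on these values. In the oldest AL stage, the columns of male replicate 5 and female replicate 5 ran in the opposite order and were turned end to end, which raised their correlation with the median profile of all arrays from 0.135 and 0.132 to 0.992. A set of 8 arrays, in 8 different groups, correlated less well with that profile (0.925 to 0.946) than the other 59 (0.976 to 0.995) and are called arrays of different profile here. The number in the sample titles divides the arrays into 5 runs, each with at most 1 mouse of a group. The study's methods speak of processing in balanced batches, without saying which samples formed one, so whether a run is such a batch is not known here. Of 25 markers of striatal neurons, 7 were on the array under their symbols. Ppp1r1b (DARPP-32, a phosphatase regulator of medium spiny neurons) had a mean adult score of 0.509 and Rasd2 of 0.134, while Foxp1 was at -0.136. The dopamine receptor genes were not analysed here.

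Snrpe encodes a small Sm protein of the core ring and had a mean adult score of 2.22 ± 0.132 (SD, n = 57). In young AL males the scores were 2.08, 2.19, 2.47, 2.25 and 2.38, and in young AL females 2.16, 2.16, 2.38, 2.18 and 2.28. In young CR males they were 1.82, 2, 2.15 and 2.36, and in young CR females 1.75, 2.3, 2.17, 2.25 and 2.21. The lowest 3 scores of all adults were thus in young CR mice, but the other young CR mice lay within the range of young AL mice, and the groups overlapped.

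The scores of Snrpe in the remaining groups lay close together. Juvenile AL mice ranged from 2.03 to 2.4 (median 2.19, n = 10), middle AL mice from 2.12 to 2.35 (median 2.18, n = 10) and old AL mice from 2.1 to 2.35 (median 2.26, n = 10). Middle CR mice ranged from 2.1 to 2.4 (median 2.23, n = 10) and old CR mice from 2.02 to 2.46 (median 2.3, n = 8). In order of the mean, the groups were old CR (2.28), young AL (2.25), middle CR (2.25), old AL (2.24), juvenile AL (2.21), middle AL (2.2) and young CR (2.11). The SD of the scores of single mice was 0.0735 to 0.212 over the groups. The ends of that order, old CR and young CR mice, are compared below.

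**Figure D1:**
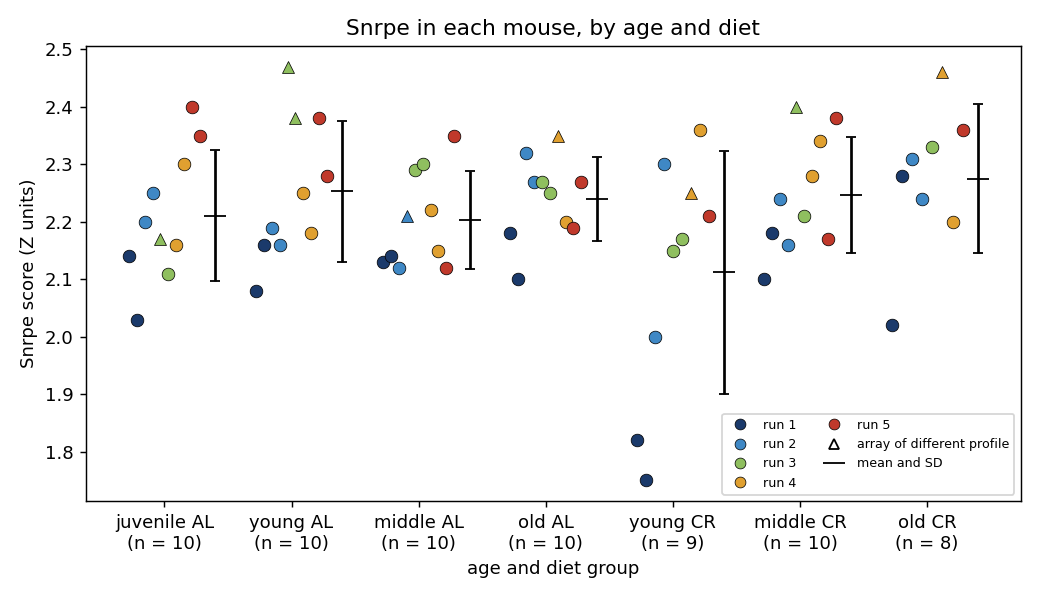
Snrpe score (y axis, Z units) of each of 67 mice by age and diet group (x axis), with males and females together, coloured by run of title numbers. Triangles are arrays of different profile, and bars to the right of each group give its mean and SD. The lowest points are the young CR mice of run 1, at 1.75 and 1.82.

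The difference of young CR from young AL mice was known from earlier work on these data and is given as a description only. It was -0.144 ± 0.0617 (SE) Z units, and -0.115 without the arrays of different profile. Within run 1 it was -0.335, within run 2 -0.025, within run 3 -0.265, within run 4 0.09 and within run 5 -0.12, with 1 or 2 mice of each diet. Leaving out 1 mouse at a time gave -0.19 to -0.0955, the smallest difference without young CR female replicate 1. A correction for position on the filter gave -0.101.

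The comparisons of Snrpe that share the young CR mice did not pass the test across all units. Middle CR mice were 0.137 ± 0.0617 (SE) higher than young CR mice (limma, Benjamini-Hochberg adjusted p = 0.893), and old CR mice 0.163 ± 0.0663 higher (adjusted p = 0.977). On AL the difference between old and young was -0.013 ± 0.0598 (adjusted p = 1). The difference between the old minus young changes on the 2 diets was 0.176 ± 0.0893 (adjusted p = 0.917). Females and males differed by 0.00936 ± 0.0358, and young adult and juvenile AL mice by 0.042 ± 0.0587, neither of which passed.

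All members were then tested together with the rest of the array. A unit was the mean of a named gene's features, or a feature of several or no symbols by itself, and the test was limited to units whose mean score exceeded 0, that is 3904 of 7782 units and 39 of 70 members in the adult fit. In each of 14 comparisons, between ages on either diet, between diets, between sexes and among juveniles, 0 of the tested members and 0 of the tested units (0%) passed an adjusted p of 0.05 in limma. At an unadjusted p under 0.05 there were 3 to 85 units in a comparison, where evenly spread p-values would give about 195. The lowest adjusted p of any member was 0.85. The standard errors of the member differences between adult AL ages were 0.0378 to 0.145 Z units, so changes of that size and larger ones could have been missed.

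In 5 comparisons a member had an unadjusted p under 0.05. These were Lsm8 in middle minus young AL (0.845% of units had such a p) and in old minus middle AL (0.333%), Snrpe and Srsf11 in middle minus young CR (2.18%), Snrpe in old minus young CR (0.154%), and Dhx38 and Snrpe in CR minus AL of young mice (0.487%). A rule after the study's methods, which asks for an unadjusted p under 0.05, a positive mean score and a difference beyond 1.5 SDs of all differences, called these same members. Here the p was limma's, the mean was taken over all arrays of the fit, and the further analysis of variance of the methods was not run. It called 0.64%, 0.333%, 1.49%, 0.102% and 0.205% of units in those 5 comparisons. Snrpe's difference between young CR and AL mice was known beforehand, so its place among these members is a description only. The CR age comparisons that list Snrpe share those young CR mice.

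Array weights, which let noisier arrays count less, changed this count in 3 comparisons. With weights by limma's gene-by-gene method, chosen after seeing the data, 7 of 39 tested members (17.9%) passed between middle and young CR mice. Of all units, 15.1% passed. Rbm6 (0.205 ± 0.0522, adjusted p = 0.00957) and Lsm14a (0.0906 ± 0.0313, adjusted p = 0.0425) were higher in middle CR mice. Lsm8 (-0.119 ± 0.0337, adjusted p = 0.0181), Rbm7, Rbmxl1, Sf3b2 and Srsf11 were lower.

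Between old and young CR mice, 3 of 39 tested members (7.69%) passed with the same weights, beside 10.7% of all units. These were Snrpe (0.16 ± 0.0484, adjusted p = 0.0305), Rbm6 (0.163 ± 0.0543, adjusted p = 0.0449) and Rbm12b1 (-0.182 ± 0.0543, adjusted p = 0.0292). The default weights, which did not converge, passed 7 members (17.9%) between middle and young CR mice, beside 16% of units. They passed 11 members (28.2%) between old and young CR mice, beside 24.8% of units. Between females and males they passed 1 member, Srsf11 (2.56%), beside 2.56% of units. Both CR comparisons use the same 9 young CR mice. Snrpe's difference between those mice and young AL mice was known beforehand, so its pass between old and young CR mice is not an independent result. Leaving out 1 array at a time under the gene-by-gene weights gave 2 to 15 members (75 to 1347 units) in the former and 0 to 16 (0 to 1306 units) in the latter. The latter had 0 without young CR male replicate 1, without young CR female replicate 3, or without any of the 3 old CR males, and the former 2 without young CR male replicate 1 or without young CR female replicate 2 or 3.

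The median differences of the members lay between -0.0279 and 0.0208 Z units in the 14 comparisons. The median member difference was -0.009 between old and young AL mice, beside -0.004 over all units, and 27 of 70 members were higher (46.7% of all units were). Between old and young CR mice it was 0.00225, with 35 of 70 members higher and 49.7% of all units. Between CR and AL mice of all ages it was -0.00103, with 34 higher, beside 51.2% of all units. Between middle and young AL mice it was -0.0175, with 24 of 70 members higher against 47.6% of all units. Between young adult and juvenile AL mice it was 0.0125, with 43 higher against 53.4% of all units.

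The median furthest from 0 was that of late against early juveniles, -0.0279, with 23 of 70 members higher (46.9% of all units, whose median was -0.00667). With a term for the run of title numbers in the fit, that median was -0.000357, beside -0.000714 over all units. Both juveniles of run 5 were late (40 and 33 days) and both of run 3 early (19 and 21 days). Juvenile age and run thus cannot be fully told apart. Between old and middle CR mice the median was 0.0208, with 40 of 70 higher (50.3% of all units). Between old and middle AL mice it was 0.01, with 46 of 70 higher (50.9% of all units).

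**Figure D2:**
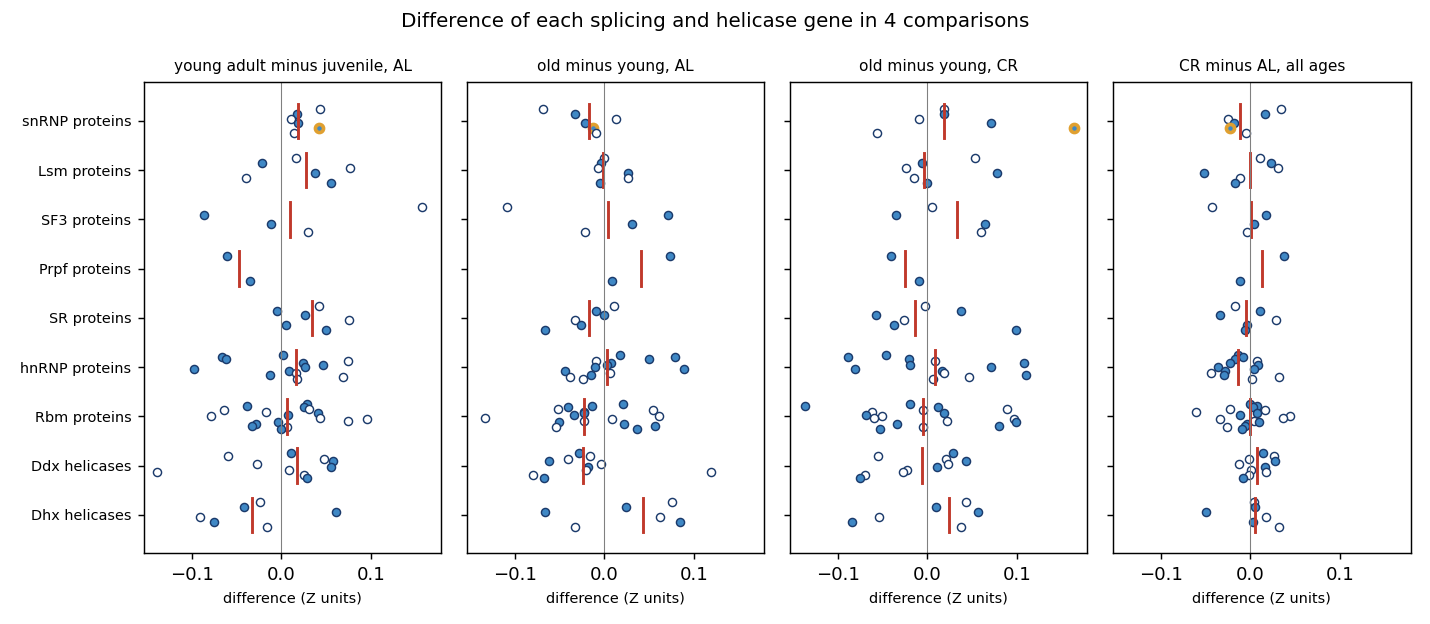
Difference of each of 70 genes (x axis, Z units) in 4 comparisons, by subfamily (y axis). Filled points were tested, open points had a mean score of 0 or less, the orange outline marks Snrpe and red lines are subfamily medians. Most points lie within 0.1 of 0, and the largest difference in old minus young CR is Snrpe at 0.163.

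Among the snRNP genes, 3 of 6 were tested. Snrpb, another Sm protein, stood at 0.718 in young and 0.685 in old AL mice, a difference of -0.033 ± 0.0483 that did not pass (adjusted p = 1). All 6 genes were higher in young adult than juvenile AL mice, by 0.011 to 0.043, which is less than the standard error of Snrpe in that comparison. Between middle and young AL mice 5 of 6 were lower, with a median of -0.0465.

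Of the Lsm genes, Lsm8, a subunit of the ring on U6, came closest to a change on AL. Its AL scores ran from 0.93 to 1.21 (median 1.01) in young mice, from 0.81 to 1.05 (median 0.925) in the middle group and from 0.92 to 1.15 (median 1.03) in old mice. The middle group was lowest but overlapped both others. Middle minus young was -0.094 ± 0.0438 and old minus middle 0.089 ± 0.0438, each with an adjusted p of 1. On CR the same gene was 1.01 ± 0.141 (SD, n = 9) in young mice, 0.919 ± 0.053 (n = 10) at middle age and 0.998 ± 0.0924 (n = 8) in old mice. Both AL differences use the same 10 middle AL mice. Lsm14a, a protein of cytoplasmic RNA granules, was 0.074 ± 0.039 higher in middle than young CR mice (adjusted p = 0.893). Its value is the mean of 2 features that went opposite ways within groups (r = -0.462).

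SF3b proteins belong to the U2 snRNP and help it recognise the branch point. Sf3b1, the largest SF3b subunit, had a mean adult score of -2.14 ± 0.3 (SD, n = 57) and was not tested. Sf3b2 was 0.127 in young and 0.198 in old AL mice, a difference of 0.0715 ± 0.0737. Prpf31, a protein of the tri-snRNP, stood on AL at 1.82 ± 0.181 in young mice, at 1.87 ± 0.122 in the middle group and at 1.83 ± 0.0874 in old mice (SD, n = 10 each). Prpf18, a factor for the second step of splicing, was 0.073 ± 0.0843 higher in old than young AL mice (adjusted p = 1). In the adult arrays of different profile, Sf3b2 scored -0.33 to -0.04 and Prpf18 -0.22 to 0.11. In the other adult arrays they scored 0.055 to 0.465 and 0.21 to 0.68. Young AL mice include 2 arrays of different profile and old AL mice 1.

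SR protein genes were tested in 4 of 6 cases. On AL, Srsf6 scored from 1.35 to 2.28 (median 1.83) in young mice, from 1.65 to 1.97 (median 1.75) in the middle group and from 1.43 to 2.05 (median 1.78) in old mice. The old mice lay within the range of the young ones, and old minus young was -0.066 ± 0.0924. All 6 SR genes were lower in middle than young AL mice, by 0.015 to 0.079, but none of the 4 tested reached an unadjusted p of 0.05. Srsf11 was 1.12 ± 0.157 (SD, n = 9) in young and 0.989 ± 0.108 (n = 10) in middle CR mice, a difference of -0.132 ± 0.0649 (adjusted p = 0.893).

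Of 13 hnRNP genes, which package nascent transcripts and often act against SR proteins, 9 were tested. Hnrnpk was 0.044 in young and 0.133 in old AL mice, a difference of 0.089 ± 0.075 (adjusted p = 1). In CR mice it went the other way, from 0.144 in young to 0.0633 in old mice. The difference between the diets in this change was -0.17 ± 0.112 (adjusted p = 0.917). Hnrnpk scored -0.35 to -0.06 in the 7 adult arrays of different profile and 0.01 to 0.43 in the other 50. Young AL mice include 2 of those arrays and each other adult age and diet group 1. Hnrnpu ranged from -0.085 to 0.325 (median 0.14) in young and from 0.015 to 0.33 (median 0.23) in old CR mice, overlapping widely, with a difference of 0.11 ± 0.0603 (adjusted p = 0.977). Hnrnph1 stood at 1.71 ± 0.12 (SD, n = 57) and differed by -0.0357 ± 0.0338 between CR and AL mice.

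The Rbm genes share an RNA recognition motif rather than a single role. Tested members numbered 9 of 17. Rbm6, a splicing regulator, gave the largest difference between adult groups, 0.48 in young and 0.674 in middle CR mice, or 0.195 ± 0.103 (adjusted p = 0.893). Its scores were 0.31 to 1.14 (median 0.4) in the young and 0.3 to 1.19 (median 0.655) in the middle CR mice, and the groups overlapped. The top score of each group was that of its 1 array of different profile. Rbm6 scored 0.74 to 1.19 in the adult arrays of different profile and 0.23 to 0.83 in the other adult arrays. Rbms3 was 0.057 ± 0.0454 higher and Rbm48, not tested, 0.133 lower in old than young AL mice. Rbm48 had a mean of -0.304 in the adult arrays of different profile and -0.812 in the other adult arrays. Young AL mice include 2 of those arrays and old AL mice 1. Rbmxl1 is a close relative of Rbmx, and a cDNA clone may bind transcripts of both. Cross-hybridisation was not tested.

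Of the helicases, 4 of 10 Ddx and 3 of 6 Dhx genes were tested. Dhx38, which acts in the second catalytic step of splicing, ranged from 0.67 to 0.94 (median 0.8) in young AL and from 0.57 to 0.86 (median 0.67) in young CR mice. The CR scores were lower on the whole, with overlap, and the difference was -0.118 ± 0.0458 (adjusted p = 0.85). Over all ages it was -0.0494 ± 0.0266 (adjusted p = 1). Dhx57 went the other way and was 0.11 ± 0.09 higher in young CR than young AL mice (adjusted p = 0.85). It scored -0.26 to -0.02 in the adult arrays of different profile and 0 to 0.54 in the other adult arrays. Among Ddx genes, Ddx54, a nucleolar helicase of ribosome assembly, was 0.067 ± 0.0569 lower in old than young AL mice. Ddx4, the germ cell helicase Vasa, had a mean score of 0.443, and a score above 0 does not show that a gene is expressed.

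**Figure D3:**
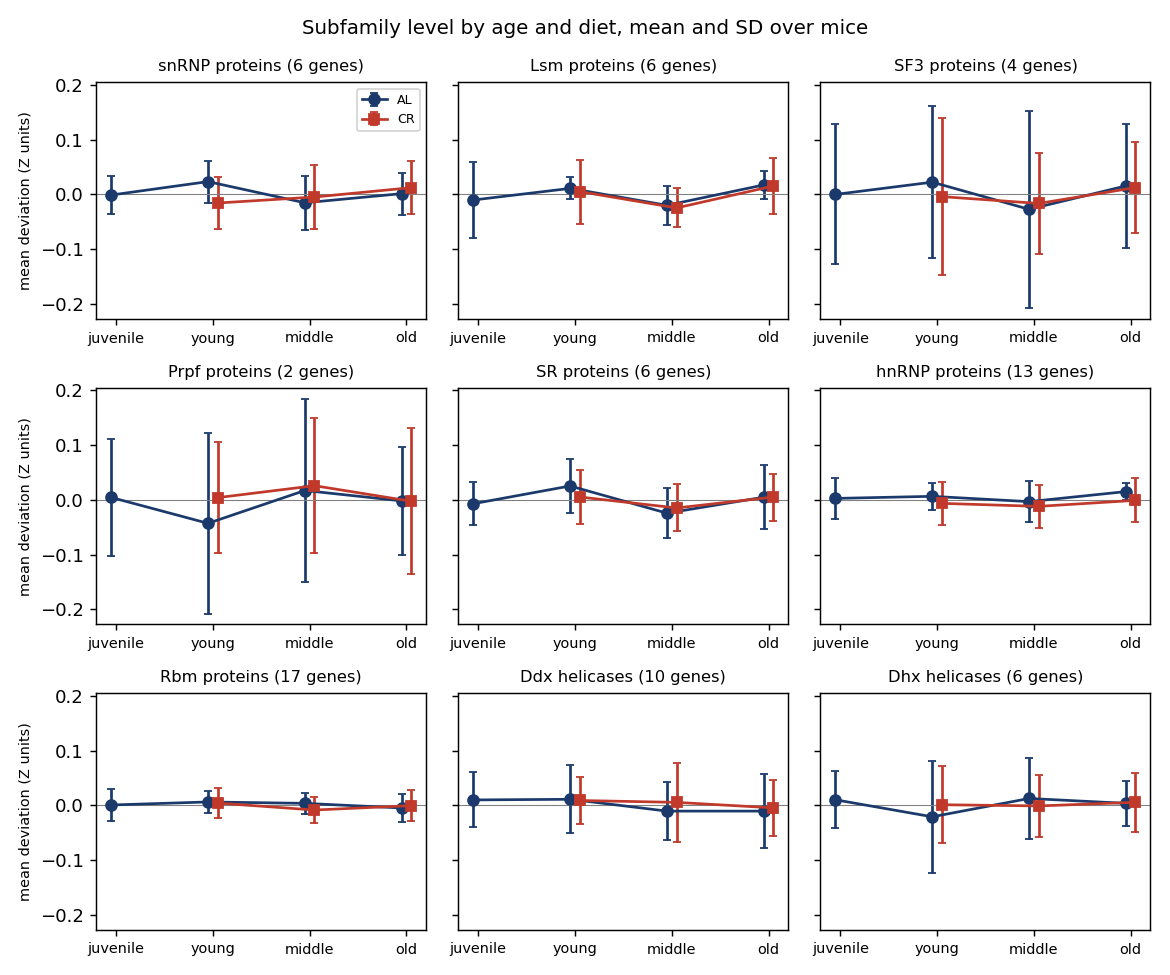
Mean deviation of each subfamily from its mean over the 57 adult arrays (y axis, Z units) by age (x axis) for AL mice (blue circles) and CR mice (red squares). Points are means over mice and bars are SDs. The group means lie between -0.0429 and 0.0259, and the bars of AL and CR mice overlap at every age.

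The mean deviation of a subfamily over its genes was compared between groups as a description, with no test. The largest group mean in size was that of the 2 Prpf genes in young AL mice, -0.0429 ± 0.165 (SD, n = 10), which became 0.0315 ± 0.0584 (n = 8) without the 2 arrays of different profile in that group. The SR genes stood on AL at 0.0254 ± 0.0488 in young mice, -0.0243 ± 0.0463 at middle age and 0.00488 ± 0.0583 in old mice, and the Lsm genes at 0.0109 ± 0.02, -0.02 ± 0.0353 and 0.0172 ± 0.0257, with overlap between ages. For the 17 Rbm genes the means ran from -0.00853 ± 0.0237 (middle CR) to 0.00623 ± 0.0198 (young AL). For the 13 hnRNP genes they ran from -0.0119 ± 0.0391 (middle CR) to 0.0151 ± 0.0154 (old AL), and for the 10 Ddx helicases from -0.0105 ± 0.0675 (old AL) to 0.0111 ± 0.0621 (young AL).

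Other genes of the pathway and markers of other cells were set beside the members. Of 77 further splicing factors, 30 were on the array and 15 were tested, and 0 passed in any comparison, with medians of -0.0185 (old minus young AL) and 0.00474 (CR minus AL). Of 57 neuronal and other RNA-binding proteins, 24 were on the array and 0 passed. Markers of striatal neurons, astrocytes, myelin, microglia, blood and immature cells were each summarised as the mean deviation from the genes' adult means. The ranges of these deviations overlapped between all age and diet groups. Striatal neuron markers were higher in CR than AL mice for 6 of 7 genes (median 0.037), led by Ppp1r1b at 0.122. All 7 astrocyte markers on the array were higher in old than middle AL mice (median 0.059). So were all 4 microglial (median 0.049) and both myelin markers (median 0.0655), beside 50.9% of all units (median 0.001). Between old and young AL mice, 4 of 7 astrocyte, 3 of 4 microglial and both myelin markers were higher. Old against young CR mice gave 4 of 7, all 4 and 1 of 2. Of these markers, 6 striatal neuron, 5 astrocyte, 2 microglial and 1 myelin were tested, and 0 passed in these comparisons. Their part in the members' values was not tested. No endothelial marker of the list was on the array under its symbol.

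The members did differ between the runs of title numbers, a comparison added after the data were seen. With the 12 adult groups held in the fit, 21 of 39 members passed (53.8%), as did 1517 of 3904 units (38.9%, limma F test, adjusted p under 0.05). They included all 4 tested SR genes (Srsf5, Srsf6, Srsf10 and Srsf11), all 4 tested Ddx genes (Ddx4, Ddx17, Ddx24 and Ddx54), 5 of 9 Rbm genes and 4 of 9 hnRNP genes, but 0 of 2 Prpf and 0 of 3 Dhx genes.

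Ddx24, a nucleolar helicase, varied most. Its mean was -0.223 ± 0.183 in run 1, -0.114 ± 0.132 in run 2, 0.45 ± 0.201 in run 3, 0.183 ± 0.225 in run 4 and -0.167 ± 0.14 in run 5 (SD, n = 12, 12, 11, 12 and 10 adult arrays, adjusted p = 4.25e-09). Runs 3 and 4 were the high ones and held 6 of the 7 adult arrays of different profile. Without those arrays, the means of runs 3 and 4 were 0.351 and 0.106.

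Snrpe was lowest in run 1, at 2.08 ± 0.152, and stood at 2.21 ± 0.092, 2.29 ± 0.0983, 2.27 ± 0.0911 and 2.27 ± 0.095 in runs 2 to 5 (adjusted p = 7.91e-04). Srsf6 followed a like course, with 1.59 ± 0.165 in run 1 and 1.78 to 1.95 in the other runs (adjusted p = 0.00109). Both of the lowest Snrpe scores, those of young CR male 1 and young CR female 1, were in run 1. Without run 1, 4 of 39 members and 376 of 3881 units passed. What the runs stand for was not tested.

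**Figure D4:**
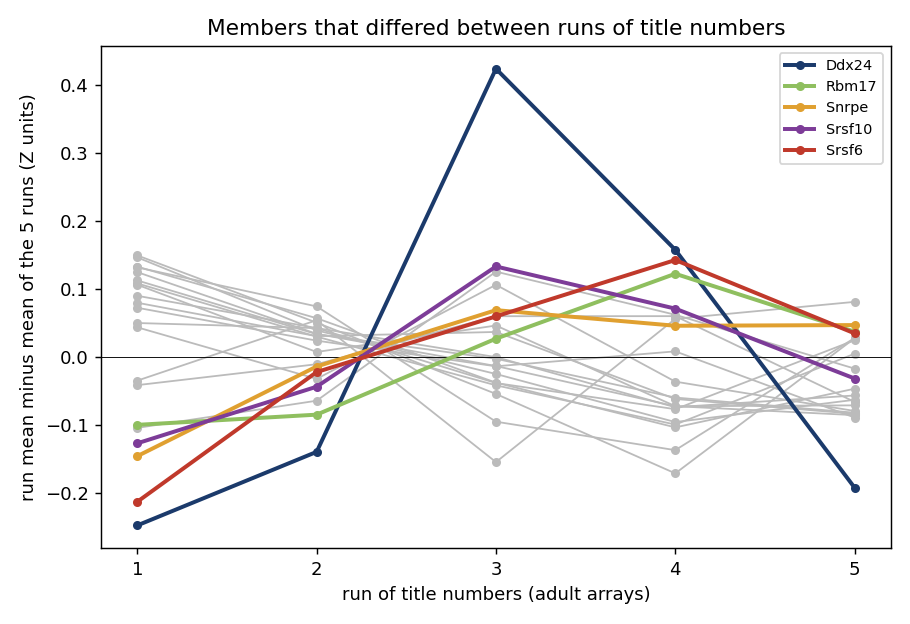
Mean of the adult arrays in each run of title numbers (x axis) minus the mean of the 5 runs (y axis, Z units) for the 21 members that differed between runs. Ddx24 spans 0.673 and peaks in run 3, while Snrpe and Srsf6 are lowest in run 1, and grey lines are the other members.

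Within groups, the scores of Snrpe went along with those of many other genes, 447 of 2017 having an r above 0.5. Over the 57 adult arrays and these tested genes of 1 symbol, after subtracting group means, the closest were Tiparp (r = 0.866), Srsf6 (0.862), Glo1 (0.855), Polr2d (0.853) and Mid1ip1 (0.852), against a median r of -0.056 over all genes. After subtracting run means as well, the r of Srsf6 was 0.805. These points share array, run and hybridisation.

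The 7 adult arrays of different profile stood apart from the other 50 in many members. The 8 arrays were chosen on all features, members included, so this is a description. In the adult ones, Dhx37, a ribosome assembly helicase, scored 0.55 to 0.87, and in the other 50 adult arrays 0.92 to 1.88, without overlap. Hnrnpa1 scored -0.14 to 0.06 in the former and 0.345 to 0.735 in the latter. Rbm39, a splicing coactivator, went the other way, with 1.07 to 1.21 against 0.68 to 0.95. In all, 16 of 70 members did not overlap (22.9%), as did 2110 of 7782 units (27.1%), and the median absolute difference was 0.216 for members and 0.245 for all units. Between old and young AL mice the median absolute difference of the members was 0.0265, and between middle and young CR mice 0.0541. Of these arrays, 2 were in young AL and 1 each in middle AL, old AL and the 3 CR ages.

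**Figure D5:**
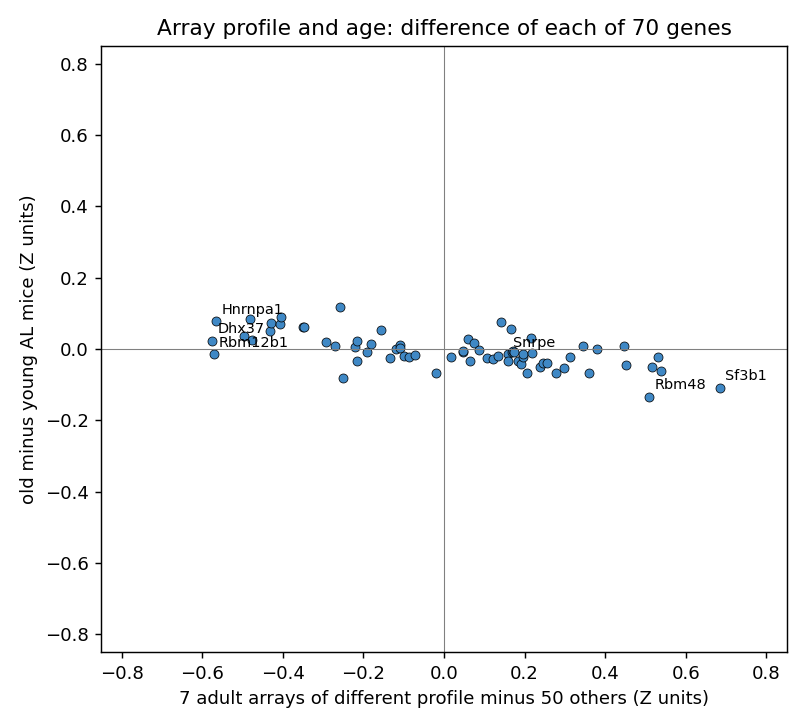
Each of 70 genes by its difference between the 7 adult arrays of different profile and the other 50 (x axis, Z units) and its difference between old and young AL mice (y axis, Z units, same scale). The x values run from -0.576 (Dhx37) to 0.685 (Sf3b1), the y values from -0.133 to 0.119. Young AL mice include 2 of these arrays and old AL mice 1, so the axes share arrays.

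Features of the same gene did not always follow each other. In 11 genes with more than 1 feature, 13 pairs had a within-group correlation from -0.706 (Prpf31) to 0.854 (Hnrnpa1), with a median of 0.187 (57 arrays). The features of Srsf10 had mean scores of -1.32 and 1.52 (r = 0.027), and those of Lsm14a -0.244 and 1.25 (r = -0.462). Of the 13 pairs, 2 had an r over 0.5 and 3 an r below 0. A gene mean over such features rests on clones that gave different values.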

How the data were processed

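Total RNA of each striatum was labelled with radioactive phosphorus by reverse transcription, hybridised to a nylon cDNA filter and read from a phosphor screen, per the labels. The deposited values are Z scores made by the authors from each array's intensities, so that the 8448 features of an array average 0 with an SD of 1. The number of arrays limits the precision, and for the background treatment and genome build the sources used here gave nothing. Groups came from titles and characteristics, and replicates are mice. Gene symbols came from the platform annotation table, which gave 4875 features 1 symbol, 224 several and 3349 none. The symbols of all 82 member features were unchanged in RefSeq.

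Features of a gene were averaged, and limma 3.58.1 (R 4.3.3) modelled the 12 adult groups by their means. Separate fits held the juvenile and young AL groups (20 arrays) and the 10 juveniles, split at 30 days of age with sex as a term. Contrasts weighted the sexes equally. Units with a mean score above 0 were tested, and p-values were adjusted over all of them by Benjamini-Hochberg at 0.05. The fit was checked on simulated data. A test of the 5 runs of title numbers (1 to 14, 15 to 28, 29 to 41, 42 to 55 and 56 to 67) was added after seeing the data.

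The members and gene lists were chosen with earlier results of these data known. The text names Snrpe and the 5 genes most like it. Other genes were drawn from the 3 tested members of smallest unadjusted p in each direction of a comparison. They were also drawn from the largest tested difference of each subfamily in 3 comparisons and from genes whose features differed most. Not every gene that met these rules is named, so the named genes are a selection. Sf3b1, Rbm48, Ddx4, Rbm39 and the genes named for runs, profile or array weights were chosen after their values were seen. Alternatives were quantile normalization, median centring, no filter, the run as a block, array weights, the 2 turned columns as deposited or left out, fits of the compared groups only, a term for or omission of the arrays of different profile, position correction, single features, each array left out in turn, and a rule after the study's methods (unadjusted limma p under 0.05, a positive mean and a Z-ratio, the difference over the SD of all differences, beyond 1.5, without the analysis of variance that followed there). Figures were drawn with matplotlib 3.10.9.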

Additional observations from a re-analysis of the deposited data

Results flagged for a closer look

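In 130 sets of 4 or 5 mice (Snrpe or a subfamily mean in a group), 10 had an array set apart from the others by Dixon's test, where chance gives about 1 in 20. For Snrpe these were young CR female replicate 1, at 1.75 with the nearest mouse at 2.17, and juvenile AL male replicate 5, at 2.4 with the nearest at 2.2. For the mean deviation of the Prpf genes they were middle AL female replicate 2 (-0.43) and young AL male replicate 3 (-0.328), both arrays of different profile, and old CR female replicate 4 (0.167). Middle CR female replicate 5 stood apart in the Lsm genes (-0.102) and in the Dhx helicases (0.0608). The others were SF3 genes in juvenile AL female replicate 4 (-0.122), Ddx helicases in young CR female replicate 5 (-0.0848) and Lsm genes in young CR male replicate 3 (0.0609). The causes were not tested.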

How the results depend on the processing

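The count of members called stayed at 0 under the alternatives run for each comparison, except array weights and the rule after the study's methods, and leaving out each array in turn gave 0 to 0 members throughout. The 2 columns as deposited or left out, and fits of the compared groups only, were run for the 12 adult comparisons alone. The rule called 1 member between middle and young AL mice, 1 between old and middle AL, 2 between middle and young CR, 1 between old and young CR and 2 between CR and AL in young mice. In those of these comparisons that hold young CR mice, Snrpe is among the members called. Its difference between young CR and AL mice was known beforehand. Array weights called 7 members between middle and young CR mice (5, beside 395 of 3904 units, with gene-by-gene weights and the replicate block), 11 between old and young CR mice (3 with gene-by-gene weights, 2, beside 200 of 3904 units, with the block added) and 1 between females and males. The run of title numbers as a replicate block, without weights, left 0 members called in each comparison, and Snrpe's difference between young CR and AL mice at -0.139. Without the 8 arrays of different profile, 5 members and 722 of 3915 units had an unadjusted p under 0.05 between middle and young CR mice, with 0 called. Between runs, 32 of 70 members were called with no filter (2989 of 7782 units), 14 of 39 with the 2 columns as deposited (1027 of 3903 units) and 4 of 39 without run 1 (376 of 3881 units), and 17 to 25 when single arrays were left out. With the columns as deposited, Snrpe's difference between old and young AL mice was -0.567 in place of -0.013, because 2 columns then list other features. The causes of the remaining changes were not tested. Scores hold no measure of signal over background, so features near the filter's background cannot be told from expressed ones.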
